A study of Mus musculus with 16 samples.

Results

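The liver transcriptome of mice that received cadmium on top of a selenium-supplemented diet (Cd+Se) was compared with that of control mice, to see which genes still differed from the untreated state. The genes described are 10483 protein-coding ones whose TPM (transcripts scaled to the same total in every library) averaged 1 or more over all 16 libraries, out of 57010 genes in the table, of which 22005 are protein-coding. The other 11522 protein-coding genes lay under this limit. At the limit itself, Cpt1b was just inside with a mean of 1 TPM and Zfp267 just outside with 0.998 TPM.

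Each group held 4 wild-type C57BL/6J mice, all males, aged 8 to 12 weeks before the diet began, and RNA came from liver. The 4 Cd+Se mice (13, 14, 15 and 16) ate a diet with 2 ppm selenomethionine (SeMet) during 3 months, and CdCl2 (1.25 mg/kg) was injected intraperitoneally each day of the final 7 days. The 4 control mice (27, 28, 29 and 30) carry the label of the control group only, and a vehicle for them is not given in the sources used here. The Cd mice (1, 2, 5 and 6) had CdCl2 alone and the Se mice (39, 40, 41 and 44) had SeMet alone, and both enter here only beside the genes of the Cd+Se comparison. Each sample title lists a first and a second replicate of one mouse number, while the table has 1 column per mouse, so 1 value per mouse was used. How mice were allocated to groups is not given in the sources used here. In the main test, p-values and standard errors rest on the spread between mice within groups, pooled over all 4 groups.

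The libraries were liver by their markers. Alb, which encodes albumin, ranged from 22135 to 86650 TPM over the 16 libraries and Ttr, which encodes transthyretin, from 4715 to 7718 TPM. On the log2(TPM + 1) scale, the mean correlation of a library with the other libraries of its group was 0.976 to 0.979 in control mice and 0.956 to 0.968 in Cd+Se mice, so the Cd+Se livers were the less alike. No pair of libraries held identical values. TPM values keep no sequencing depth, so depth is unknown and no detection floor is given.

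Cadmium that reaches the liver is bound by metallothioneins, small cysteine-rich proteins whose genes are switched on by metals through metal response elements (MREs) in their promoters. The liver also holds a resident macrophage, the Kupffer cell, which lines the sinusoids, clears particles and hemoglobin complexes from blood and is recognized by genes such as Clec4f, Timd4, Vsig4 and Cd163. When the liver is injured, chemokines draw in neutrophils and monocytes from the blood, NF-κB target genes are transcribed, and hepatocytes secrete acute-phase proteins. Se enters selenoproteins, which include glutathione peroxidases and thioredoxin reductases.

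Across the 10483 genes, 53 differed between Cd+Se and control at an adjusted p under 0.05 (limma on log2(TPM + 1), Benjamini-Hochberg over the 11766 genes tested), 34 of them higher and 19 lower in Cd+Se. Over all genes tested the share was 0.484%, made of 0.314% higher and 0.17% lower. At an unadjusted p under 0.05 there were 1137 of the 10483 genes, 454 higher and 683 lower, while 10.9% of all genes tested reached it, 4.71% higher and 6.22% lower. The median difference over the 10483 genes was -0.03 on the log2 scale. All 53 genes had groups that did not overlap, as did 8.86% of all genes tested. Of the 53, 36 differed by at least 1 on the log2 scale, 27 higher and 9 lower. The rises ran from 0.76 to 6.12 with a median of 1.26, and the falls from -0.49 to -2.22 with a median of -0.98.

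Many of these genes were weakly expressed. In 12 of the 53 the control mean was under 1 TPM, and in 3 the Cd+Se mean was, so such genes passed the limit through the groups in which they were high. The fold change on the log2(TPM + 1) scale understates the change of these genes, and ratios of the group means are given where they help. The highest value in the Cd+Se group came from mouse 13 in 25 of the 34 genes that rose, from mouse 15 in 5, from mouse 16 in 3 and from mouse 14 in 1. Without mouse 13 the number past the threshold was 32 genes, of which 29 were among the 53. Without mouse 15 it was 95 genes, of which 40 were among the 53.

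**Figure D1:**
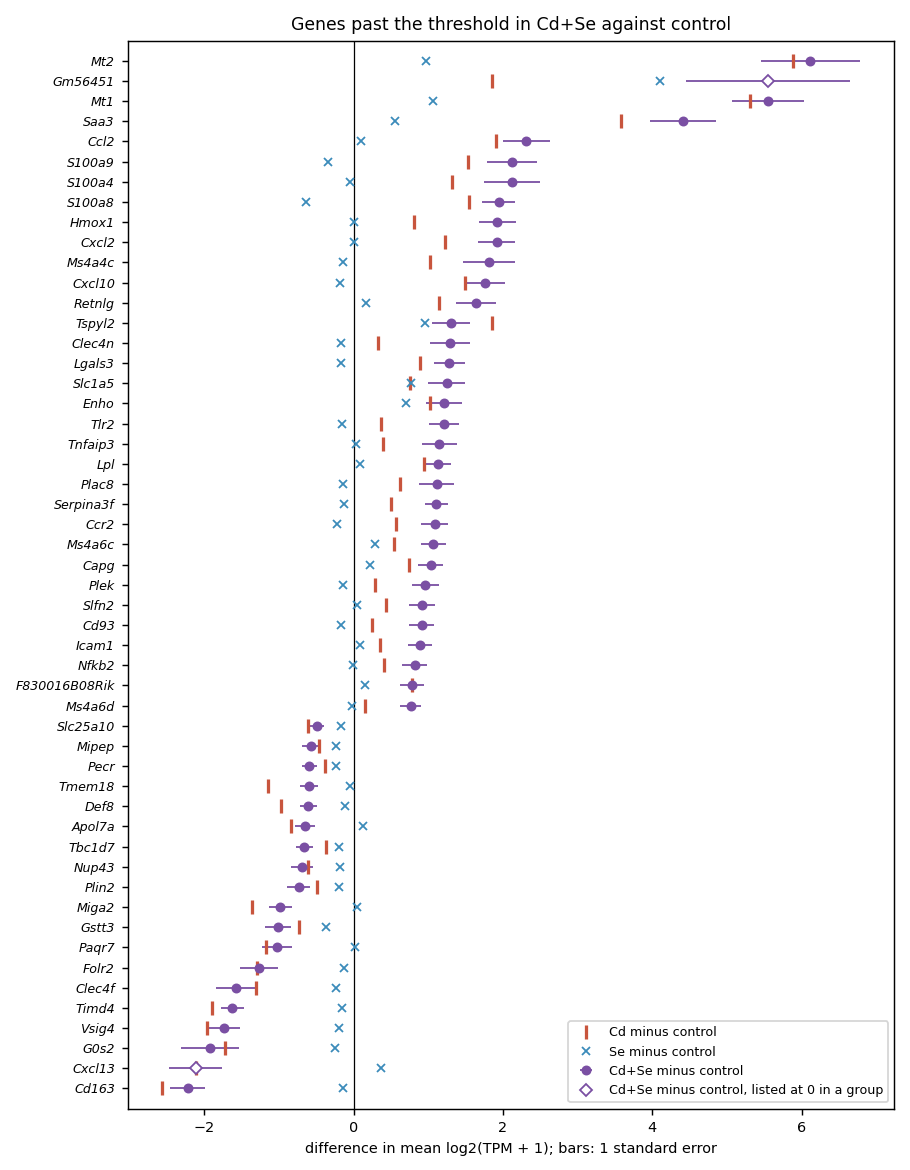
Difference in mean log2(TPM + 1) for 52 of the 53 protein-coding genes past the threshold in Cd+Se against control (circles, with bars of 1 standard error, n = 4 mice a group), with Cd minus control (red ticks) and Se minus control (blue crosses) beside them. Open diamonds mark Gm56451 and Cxcl13, each listed at 0 in every mouse of a group. The 33 rises drawn run from 0.76 to 6.12 and the 19 falls from -0.49 to -2.22.

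Metallothionein genes rose the furthest of the 53, beside Gm56451, which was listed at 0 in the control mice. Mt1 and Mt2, neighbours on chromosome 8 (94179082 to 94180327 and 94172664 to 94173568, GRCm38, plus strand), encode the main metal-binding metallothioneins of liver. Mt1 stood at 221, 50.9, 96.8 and 94.0 TPM in control mice 27 to 30 and at 6070, 3621, 5880 and 3947 TPM in Cd+Se mice 13 to 16. Every Cd+Se liver was far above every control liver, with mean values 42.2 times apart. The log2 difference was 5.55 ± 0.48 (SE, n = 4 mice a group, adjusted p = 4.08e-05). Mt2 stood at 150, 26.4, 49.5 and 50.6 TPM in controls and at 5872, 3064, 5032 and 2765 TPM in Cd+Se mice, a log2 difference of 6.12 ± 0.66 (adjusted p = 0.00014). Control mouse 27 had the highest value of its group for both genes. In the Cd mice Mt1 ran from 3178 to 4899 TPM, and Cd+Se did not differ from Cd past the threshold (0.24 ± 0.48, adjusted p = 0.76 for Mt1). By Mt1 and Mt2, none of the 8 mice went against the cadmium part of its label. Neither gene differed between Cd+Se and Cd past the threshold, so the SeMet part was not checked by them.

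The promoters of Mt1 and Mt2 are shown because MREs are the sites through which metals act on these genes. The bases come from RefSeq (GRCm38.p6) and end at the annotated start or, for Mt1, where GENCODE M21 starts the gene. Mt1 is shown from chr8:94178839-94179081 and Mt2 from chr8:94172368-94172617, both on the plus strand, 5′ to 3′, with matches to TGCACNC or TGCGCNC on either strand in capitals.
Mt1: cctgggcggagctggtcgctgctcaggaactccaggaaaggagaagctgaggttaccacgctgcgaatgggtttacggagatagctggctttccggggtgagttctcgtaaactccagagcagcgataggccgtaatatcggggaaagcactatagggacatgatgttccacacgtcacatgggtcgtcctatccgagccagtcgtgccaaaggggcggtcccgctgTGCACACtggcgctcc
Mt2: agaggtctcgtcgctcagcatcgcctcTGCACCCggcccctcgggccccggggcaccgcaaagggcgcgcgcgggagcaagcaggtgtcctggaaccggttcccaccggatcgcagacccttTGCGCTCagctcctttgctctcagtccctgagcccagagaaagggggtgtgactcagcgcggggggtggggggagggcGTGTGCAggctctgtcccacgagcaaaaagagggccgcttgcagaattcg
In the 250 bases before the RefSeq start, Mt1 held 1 match to TGCACNC and none to TGCGCNC, while Mt2 held 2 matches to TGCACNC and 1 to TGCGCNC. Bases downstream of that start were not searched. The counts depend on the annotated start and are not the number of MREs that either gene holds. Over all 32851 promoter windows of this length, 10.4% held TGCACNC and 12.5% held TGCGCNC. Of the 53 genes, 41 had a window, and among the 23 that rose Mt1 and Mt2 alone held TGCACNC, against 3 of the 18 that fell (Cxcl13, G0s2 and Timd4).

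Other genes of metal binding and transport did not pass the test. Of the 22 list members tested, 2 rose (Mt1 and Mt2), none fell, and the median difference was 0.09. Slc30a1, which encodes the zinc exporter of the plasma membrane, stood at 13.7 to 17.8 TPM in control mice and at 25.5 to 31.7 TPM in Cd+Se mice, without overlap (0.82 ± 0.23, adjusted p = 0.15). In the Cd mice it was at 10.4 to 24.0 TPM. Hamp, which encodes the iron hormone hepcidin, differed by -0.12 ± 0.57 (adjusted p = 0.96), and Slc40a1, the iron exporter it controls, by 0.05 ± 0.25 (adjusted p = 0.96).

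Several genes of Kupffer cell identity fell, while most of the list did not pass. Of the 22 tested genes of the Kupffer list, 5 fell and none rose at an adjusted p under 0.05, with a list median of -0.42 against a median of -0.03 over the 10483 genes. At an unadjusted p under 0.05, 11 were lower and 1 was higher, and without control mouse 30 there were 3 that passed. Cd163 and Timd4 averaged under 1 TPM in Cd+Se mice and were tested through groups in which they were high. The 5 that fell were Cd163, Vsig4, Timd4, Clec4f and Folr2, all cell-surface proteins, and each lay lower in every Cd+Se liver than in any control liver. The 5 falls were of like direction in the Cd mice, and none differed between Cd+Se and Cd past the threshold (adjusted p from 0.24 to 0.96). These are bulk samples, in which fewer cells of a type and less RNA per cell cannot be told apart.

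Cd163 encodes the scavenger receptor for haptoglobin-hemoglobin complexes. It stood at 6.23, 6.52, 4.95 and 6.89 TPM in control mice 27 to 30 and at 0.67, 0.32, 0.72 and 0.43 TPM in Cd+Se mice 13 to 16. The Cd+Se mean was 0.087 of the control mean, and the log2 difference was -2.22 ± 0.24 (adjusted p = 0.00014). The Cd mice stood at 0.06 to 0.36 TPM, and Cd+Se exceeded Cd by 0.34 ± 0.24 on the log2 scale without passing the test (adjusted p = 0.33).

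Timd4, the phosphatidylserine receptor that long-lived resident Kupffer cells carry, stood at 3.21, 3.84, 2.56 and 3.52 TPM in control mice and at 0.65, 0.24, 0.34 and 0.34 TPM in Cd+Se mice. No Cd+Se mouse came near the control range, and the difference was -1.62 ± 0.16 (adjusted p = 0.000102). Vsig4, a complement receptor of tissue macrophages, stood at 18.2, 18.1, 16.3 and 19.3 TPM in control mice and at 3.37, 5.32, 5.62 and 4.65 TPM in Cd+Se mice (-1.74 ± 0.22, adjusted p = 0.000758). Cd163, Timd4 and Vsig4 stayed past the threshold in every alternative setting in which they were tested, including the omission of each of the 8 mice.

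Clec4f, a lectin found on Kupffer cells, stood at 40.8, 42.1, 39.5 and 48.6 TPM in control mice and at 7.48, 15.5, 14.3 and 20.8 TPM in Cd+Se mice. Mouse 13 was the lowest and mouse 16 the highest of the Cd+Se group, and both lay under all controls (-1.57 ± 0.27, adjusted p = 0.0139). Without control mouse 30 the adjusted p of Clec4f was 0.0514. Folr2, a folate receptor of resident macrophages, stood at 9.36, 10.8, 8.45 and 11.1 TPM in control mice and at 1.57, 5.23, 3.51 and 4.85 TPM in Cd+Se mice (-1.26 ± 0.26, adjusted p = 0.0368). Its call was lost on leaving out any of the 4 control mice, Cd+Se mouse 13 or Cd+Se mouse 15, with an adjusted p of up to 0.119, and its difference without mouse 13 was -0.99.

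**Figure D2:**
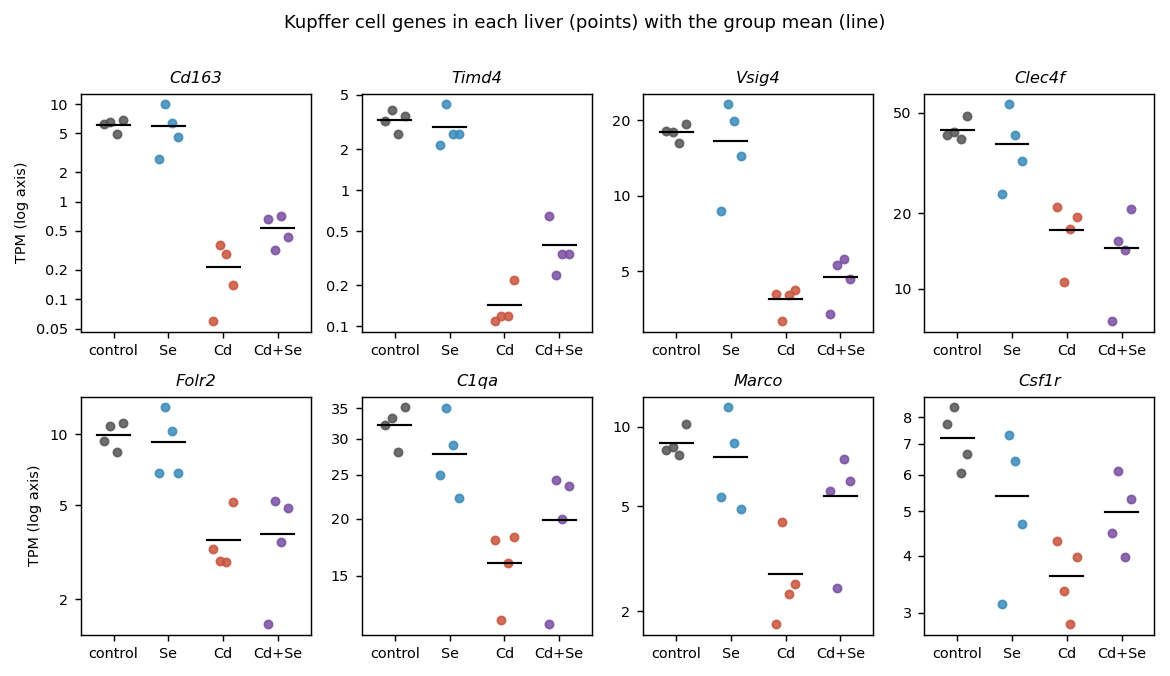
TPM (log axis) of 8 genes of the Kupffer list in each liver of the 4 groups, with the arithmetic group mean as a line. Cd163, Timd4, Vsig4, Clec4f and Folr2 lie lower in all 4 Cd+Se livers than in any control liver, while C1qa, Marco and Csf1r lie lower on average without passing the test.

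The remaining genes of the list gave a mixed picture. The 3 chains of complement C1q, which macrophages make, lay lower without passing. C1qa stood at 27.98 to 35.1 TPM in control mice and at 11.8, 24.4, 20.02 and 23.6 TPM in Cd+Se mice (-0.71 ± 0.20, adjusted p = 0.16). C1qb differed by -0.37 ± 0.17 (adjusted p = 0.44) and C1qc by -0.54 ± 0.19 (adjusted p = 0.29). Mouse 13 was the lowest Cd+Se mouse for all 3 chains.

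Other members of the list did not pass either. Csf1r, the receptor for the macrophage growth factor CSF1, stood at 6.04 to 8.40 TPM in control mice and 3.97 to 6.12 TPM in Cd+Se mice (-0.46 ± 0.19, adjusted p = 0.39). Adgre1, which encodes F4/80, differed by -0.47 ± 0.22 (adjusted p = 0.45) and Marco, a scavenger receptor, by -0.65 ± 0.28 (adjusted p = 0.41). Clec1b differed by -0.21 ± 0.18 (adjusted p = 0.72), and Slc40a1 and Hpgd by 0.05 and -0.10. Spic, the transcription factor of macrophages that recycle iron, was the 1 gene higher at an unadjusted p under 0.05 (0.48 ± 0.16, adjusted p = 0.27).

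Summed over the 24 listed genes, the Kupffer list came to 537 to 609 TPM in control mice and to 358 to 552 TPM in Cd+Se mice, so the sums overlapped. No listed Kupffer gene was at 0 in all 8 libraries. Genes of sinusoidal endothelium, the other cell lining these vessels, varied among Cd+Se mice. None of the 26 tested passed in either direction by limma (2 higher and 3 lower at an unadjusted p under 0.05), and their median was -0.08. The 28 listed genes summed to 229 to 270 TPM in control mice and to 277, 285, 159 and 283 TPM in Cd+Se mice. The lowest was mouse 15, without which the median was 0.06. Mouse 15 also had the lowest Cd+Se sum of the stellate cell (134 TPM), lymphocyte (8.65 TPM) and monocyte (331 TPM) lists, but not of the Kupffer list. Whether cell composition differed in this mouse was not tested. Hepatocyte factors had 28 genes tested, none passing (2 higher and 1 lower at an unadjusted p under 0.05) and a median of -0.10.

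Cxcl13, a B-cell chemokine, was listed at 0 in all 4 Cd+Se mice. It stood at 2.22, 3.90, 3.80 and 3.64 TPM in control mice, it was also listed at 0 in all 4 Cd mice, and it stood at 15.7, 3.41, 3.08 and 2.27 TPM in Se mice. No fold change is given, since a 0 in a table without counts can be a failed estimate. The adjusted p of its comparison with control was 0.00936.

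Some genes of neutrophils and recruited monocytes rose in the same livers. Of the 16 listed neutrophil genes 6 were above 1 TPM on average and were tested, of which 3 rose (S100a8, S100a9 and Retnlg) and none fell. Retnlg was over that limit only through the groups injected with Cd, so no median is given for the tested genes. Of the 39 listed genes of monocytes and recruited macrophages 29 were tested, of which 7 rose, none fell and 22 did not pass, with a median of 0.50 over those tested. At an unadjusted p under 0.05, 15 of the 29 were higher and none lower. Some members, such as Ccr2 (means of 0.73 TPM in control and 2.66 TPM in Cd+Se mice), were tested only through groups in which they were high. This can raise the counts and the median.

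S100a8 and S100a9 encode the 2 chains of calprotectin, the most abundant cytosolic protein of neutrophils, and lie close together on chromosome 3. S100a8 stood at 6.2, 3.28, 3 and 2.63 TPM in control mice and at 22.7, 13.2, 13.7 and 18.7 TPM in Cd+Se mice. Its lowest Cd+Se value was more than 2 times its highest control value, and the difference was 1.94 ± 0.22 (adjusted p = 0.000247). S100a9 stood at 9.32, 2.08, 6.94 and 12.9 TPM in control mice and at 47.5, 28.5, 27.6 and 30.1 TPM in Cd+Se mice (2.12 ± 0.34, adjusted p = 0.00742). Mouse 13 stood apart from the other 3, and without it the adjusted p was 0.0362.

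Retnlg, which encodes a resistin-like protein of neutrophils, stood at 0.18, 0.37, 0.34 and 0 TPM in control mice and at 2.97, 2.24, 5.94 and 1.29 TPM in Cd+Se mice (1.64 ± 0.27, adjusted p = 0.00936). Csf3r, the receptor for the neutrophil growth factor G-CSF, reached 0.82 ± 0.19 with an adjusted p of 0.075. The other 10 listed neutrophil genes averaged under 1 TPM. Cxcr2, Mmp8 and Ltf were higher in every Cd+Se mouse than in any control mouse, with means of 0.182, 0.035 and 0.01 TPM in control mice and 0.552, 0.205 and 1.03 TPM in Cd+Se mice. Ly6g, the marker by which neutrophils are usually sorted, was at a mean of 0.02 TPM in control mice and was listed at 0 in every Cd+Se mouse. Mpo and Elane, genes of granule enzymes made in the bone marrow, had means of at most 0.038 TPM in either group. The 16 listed genes summed to 12.1 to 75.2 TPM in control mice and to 92.3 to 490 TPM in Cd+Se mice, of which Lcn2, a gene that hepatocytes also express, gave 3.71 to 55.1 TPM in control mice and 35.8 to 403 TPM in Cd+Se mice. The part of neutrophil number in these values was not tested.

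Among monocyte genes, Ccr2 encodes the chemokine receptor by which monocytes leave the marrow. It stood at 1.23, 0.78, 0.44 and 0.46 TPM in control mice and at 3.5, 2.89, 1.9 and 2.33 TPM in Cd+Se mice. The groups did not overlap (1.09 ± 0.18, adjusted p = 0.00936). Lgals3, which encodes galectin-3, stood at 2.72, 2.48, 2.58 and 2.64 TPM in control mice and at 12.7, 7.04, 5.85 and 6.86 TPM in Cd+Se mice (1.28 ± 0.21, adjusted p = 0.00936). Both calls held on leaving out any 1 mouse.

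S100a4, a calcium-binding protein of motile cells, varied widely among Cd+Se mice. It stood at 1.06, 1.40, 1.53 and 1.72 TPM in control mice and at 27.6, 3.56, 10.7 and 7.04 TPM in Cd+Se mice (2.12 ± 0.38, adjusted p = 0.0151). Mouse 13 was nearly 8 times mouse 14, and without mouse 13 the difference was 1.64. The call was lost without control mouse 27, 28 or 29, with an adjusted p of up to 0.0572. Plac8, named for placenta but also expressed by monocytes and neutrophils, stood at 7.41 to 12.6 TPM in control mice and at 41.9, 19.0, 16.2 and 22.4 TPM in Cd+Se mice (1.11 ± 0.24). Its adjusted p of 0.0499 was the closest to the threshold of all 53 genes, and the call was lost on leaving out any 1 mouse other than Cd+Se mouse 15.

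Ms4a4c, Ms4a6c and Ms4a6d, 3 members of a family of 4-pass membrane proteins of myeloid cells, lie near each other on chromosome 19 (from 11404770 to 11604849). Ms4a4c rose from 0.11 to 1.47 TPM in control mice to 3.09 to 7.46 TPM in Cd+Se mice (1.82 ± 0.35, adjusted p = 0.0241). Ms4a6c rose by 1.07 ± 0.17 (adjusted p = 0.00742) and Ms4a6d by 0.76 ± 0.14 (adjusted p = 0.0181). Ms4a6c kept its call on leaving out any 1 mouse. Ms4a6d lost it without control mouse 27, 29 or 30 (adjusted p of up to 0.078). Ms4a4c lost it without any 1 of these mice or Cd+Se mouse 13 (adjusted p of up to 0.10). These paralogs are similar in sequence, and how reads shared between them were counted is not given in the sources used here, so their separate values are uncertain. Capg, an actin-capping protein of macrophages, stood at 0.80 to 1.10 TPM in control mice and at 2.01 to 3.93 TPM in Cd+Se mice (1.03 ± 0.17, adjusted p = 0.00851).

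The other 22 monocyte genes tested did not pass. Lyz2, which encodes the lysozyme of myeloid cells, stood at 41.7 to 57.6 TPM in control mice and at 110, 79.9, 63.5 and 82.6 TPM in Cd+Se mice, without overlap (0.78 ± 0.18, adjusted p = 0.066). Trem2, a lipid receptor of macrophages, stood at 0.47 to 1.43 TPM in control mice and at 1.61 to 3.35 TPM in Cd+Se mice (0.88 ± 0.22, adjusted p = 0.097). Ly6c2, the marker of classical monocytes, differed by 0.86 ± 0.19 (adjusted p = 0.064) and Cd68 by 0.50 ± 0.19 (adjusted p = 0.34). Spp1, Fcgr1, Fcgr3 and Cybb lay between -0.10 and 0.11. Clec7a, whose annotation in the table is not protein-coding, is not among the genes described.

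Of the list genes under 1 TPM, 167 with a value above 0 were compared by an exact two-sided permutation test over 70 arrangements, whose smallest p is 0.0286. In 28 the Cd+Se mice were all higher than the control mice and in 3 all lower, at that smallest p. Among all 6264 protein-coding genes under the limit with a value above 0 in these 8 mice, 3.29% were higher without overlap and 1.07% lower. The lists were chosen with earlier results of these data known, so setting them beside these shares is no test. No list gene passed after adjustment over them (lowest adjusted p = 0.15). Genes of macrophages at that p included Mmp12, a macrophage elastase, at 0.05 to 0.31 TPM in control mice and 1.51 to 3.38 TPM in Cd+Se mice. Chil3 ran from 0.08 to 0.13 TPM against 0.85 to 4.96 TPM, and Itgax, which encodes CD11c, from 0.07 to 0.17 TPM against 0.50 to 2.23 TPM. Among cytokines, Ccl7 had a mean of 0.052 TPM in control mice and 1.98 TPM in Cd+Se mice (exact p = 0.0286). Tnf had means of 0.105 and 0.422 TPM (exact p = 0.0286), and Il6 of 0.058 and 0.135 TPM (exact p = 0.54).

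A few chemokine genes rose. Of the 20 chemokine and cytokine genes tested 3 rose (Ccl2, Cxcl2 and Cxcl10) and 1 was lower (Cxcl13), with a median of 0.41. Ccl2 and Cxcl2 averaged under 1 TPM in control mice and were tested through groups in which they were high. This can raise the count and the median. Ccl2, the ligand of Ccr2, stood at 0.07, 1.14, 0.58 and 0.21 TPM in control mice and at 15.5, 3.84, 4.85 and 4.67 TPM in Cd+Se mice. Mouse 13 was more than 3 times each of the other Cd+Se mice, and all 4 exceeded all controls (2.31 ± 0.32, adjusted p = 0.00164). The Cd mice lay close together at 4.14 to 4.54 TPM.

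Cxcl2, a ligand of the neutrophil receptor Cxcr2, stood at 0.13, 0.26, 0.12 and 0.10 TPM in control mice and at 6.55, 2.12, 4.20 and 1.91 TPM in Cd+Se mice (1.92 ± 0.25, adjusted p = 0.000921). The ratio of the means was 24.2. Cxcl10, an interferon-inducible chemokine, stood at 2.31, 2.12, 2.13 and 2.48 TPM in control mice and at 21.96, 9.88, 6.22 and 7.23 TPM in Cd+Se mice (1.76 ± 0.27, adjusted p = 0.00682). All 3 calls held on leaving out any 1 mouse.

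Other chemokines and cytokines varied too much or moved too little. Cxcl1, a further ligand of Cxcr2, stood at 9.94, 5.41, 4.15 and 36.1 TPM in control mice and at 108, 34.3, 138 and 18.9 TPM in Cd+Se mice. Control mouse 30 lay within the Cd+Se range, and the difference of 2.41 ± 0.61 did not pass (adjusted p = 0.10). Cxcl9 reached 1.23 ± 0.30 (adjusted p = 0.095) and Ccl19 0.69 ± 0.16 (adjusted p = 0.074). Il1b, which encodes interleukin-1β, stood at 1.55 to 4.98 TPM in control mice and at 3.13 to 6.33 TPM in Cd+Se mice (0.23 ± 0.36, adjusted p = 0.87).

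**Figure D3:**
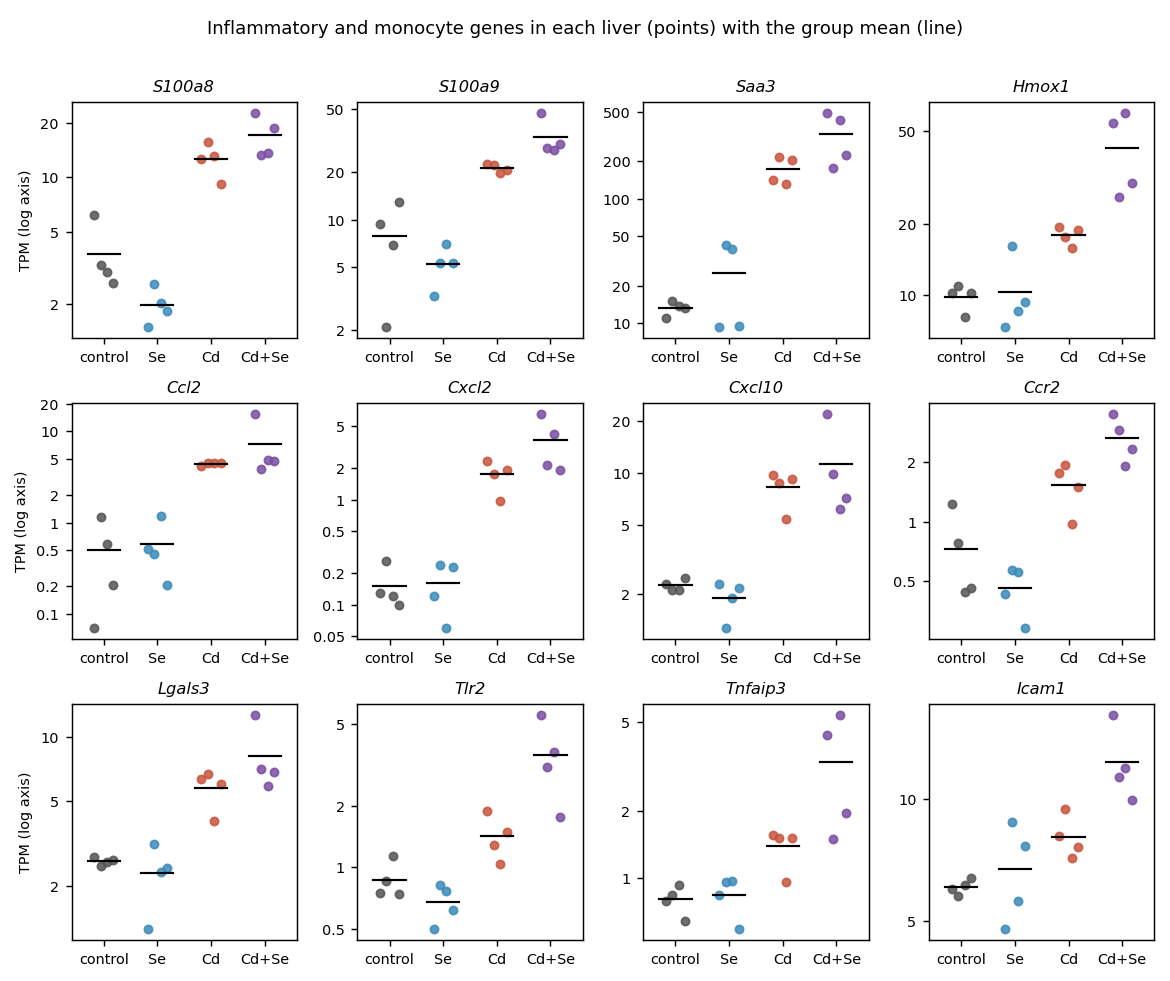
TPM (log axis) of 12 inflammatory and monocyte genes in each liver of the 4 groups, with the arithmetic group mean as a line. In all 12 the Cd+Se livers lie above all control livers. Mouse 13 is the highest Cd+Se liver for Ccl2 (15.5 TPM) and S100a9 (47.5 TPM).

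Of the 31 genes of innate sensing and NF-κB signalling tested, 4 rose and none fell, with a median of 0.12. Tlr2 and Tnfaip3 averaged under 1 TPM in control mice and were tested through groups in which they were high. This can raise the count and the median. Tlr2, the receptor for bacterial lipoproteins, stood at 0.75, 0.86, 1.13 and 0.74 TPM in control mice and at 5.56, 3.10, 3.67 and 1.76 TPM in Cd+Se mice (1.21 ± 0.20, adjusted p = 0.00959). It held on leaving out any 1 mouse. Tnfaip3, which encodes A20, an inhibitor of NF-κB that NF-κB itself induces, stood at 0.79, 0.84, 0.93 and 0.64 TPM in control mice and at 4.36, 1.49, 5.37 and 1.94 TPM in Cd+Se mice (1.15 ± 0.24, adjusted p = 0.038). Mice 13 and 15 were well above mice 14 and 16.

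Icam1, the endothelial adhesion molecule for leukocytes, stood at 5.99, 5.78, 6.14 and 6.39 TPM in control mice and at 16.1, 11.3, 11.9 and 9.92 TPM in Cd+Se mice (0.89 ± 0.16, adjusted p = 0.0181). Nfkb2, a subunit of the non-canonical pathway, rose by 0.82 ± 0.17 (adjusted p = 0.038). Tnfaip3, Icam1 and Nfkb2 each lost the call without any 1 of the 4 control mice or without Cd+Se mouse 13, with an adjusted p of up to 0.126, and without mouse 13 the list kept 1 of its 4 calls. The core factors Rela (-0.07 ± 0.17), Nfkb1 (0.11 ± 0.15) and Myd88 (0.09 ± 0.16) had adjusted p-values from 0.84 to 0.92. Tlr5 was lower without passing (-0.77 ± 0.18, adjusted p = 0.086).

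Promoters of Cxcl2 and Cxcl10 are shown because these chemokine genes are known NF-κB targets. Matches to the κB consensus, which was searched after the values were seen, are in capitals. Cxcl2 is taken from chr5:90903649-90903870 on the plus strand and Cxcl10 from chr5:92348890-92349139 on the minus strand (RefSeq, GRCm38.p6), 5′ to 3′ along the gene. The last 28 bases before the RefSeq start of Cxcl2 are left out because GENCODE M21 places them inside the gene.
Cxcl2: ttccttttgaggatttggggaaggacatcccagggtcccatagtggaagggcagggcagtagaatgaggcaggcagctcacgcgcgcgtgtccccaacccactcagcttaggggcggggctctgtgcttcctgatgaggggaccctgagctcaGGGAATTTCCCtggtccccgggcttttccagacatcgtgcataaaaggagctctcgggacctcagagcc
Cxcl10: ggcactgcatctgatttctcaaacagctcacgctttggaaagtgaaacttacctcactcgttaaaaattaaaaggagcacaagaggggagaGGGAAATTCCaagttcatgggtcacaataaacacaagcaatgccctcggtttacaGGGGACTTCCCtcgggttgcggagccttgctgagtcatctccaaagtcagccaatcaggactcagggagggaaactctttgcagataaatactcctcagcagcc
In Cxcl2 the run in capitals holds overlapping matches on both strands, which start 97 and 96 bases before the RefSeq start. In Cxcl10 the upstream match starts 159 bases before the start, and the downstream run, which starts 104 bases before it, holds overlapping matches. Of the 23 genes that rose and have a window, 6 held a κB match (Cxcl2, Cxcl10, Tnfaip3, Nfkb2, Tlr2 and Lgals3), and of the 18 that fell 2 did (Plin2 and Slc25a10). Over all 32851 windows the share was 7.25%. Windows of genes with several starts were pooled, which favours a match. Ccl2 and Hmox1 had no window, so neither was searched for any motif. Antioxidant response elements (TGACNNNGC) were found in 4 of the 23 and 3 of the 18, against 10.2% of all windows. The lysosomal motif TCACGTGA was found in 1 of the 23 and none of the 18, against 0.785%. These are matches of letters only.

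Acute-phase genes of the hepatocyte were higher on average but scattered. Of the 29 tested, 1 rose and none fell past the threshold, with a median of 0.63, and 15 were higher and 1 lower at an unadjusted p under 0.05. The gene that rose was Saa3, a serum amyloid A that macrophages also make. Saa3 stood at 11.0, 15.1, 13.8 and 13.2 TPM in control mice and at 488, 176, 426 and 222 TPM in Cd+Se mice. The lowest Cd+Se value was more than 11 times the highest control value (4.41 ± 0.44, adjusted p = 0.000102), and the call held in all 16 alternative settings.

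The liver serum amyloids did not separate the groups in this way. Saa1 stood at 5641, 398, 71.6 and 776 TPM in control mice and at 11796, 3084, 5860 and 494 TPM in Cd+Se mice (2.43 ± 1.13, adjusted p = 0.45). Saa2 stood at 3310, 169, 35.2 and 355 TPM against 9360, 2053, 4335 and 283 TPM (2.92 ± 1.24, adjusted p = 0.40). Control mouse 27 was high and Cd+Se mouse 16 was low in both. Lcn2, which encodes the siderophore-binding protein lipocalin 2, stood at 55.1, 3.71, 5.28 and 13.2 TPM in control mice and at 403, 44.9, 272 and 35.8 TPM in Cd+Se mice (3.24 ± 0.86, adjusted p = 0.13), and control mouse 27 again lay within the Cd+Se range.

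Genes of carriers of hemoglobin and heme did not overlap between the groups, as held for 8.86% of all genes tested, but did not pass. Hpx, which encodes hemopexin, stood at 3357, 1968, 1937 and 2504 TPM in control mice and at 8102, 4432, 5467 and 3416 TPM in Cd+Se mice (1.10 ± 0.28, adjusted p = 0.11). Hp, which encodes haptoglobin, stood at 1909 to 2898 TPM in control mice and at 3136 to 7070 TPM in Cd+Se mice (0.99 ± 0.26, adjusted p = 0.13). Apcs, which encodes serum amyloid P, reached 1.37 ± 0.34 (adjusted p = 0.095). The fibrinogen chains Fga, Fgb and Fgg differed by -0.18, 0.11 and 0.06 with adjusted p-values of at least 0.77. The 29 genes summed to 19150 to 35232 TPM in control mice and 23132 to 61033 TPM in Cd+Se mice.

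**Figure D4:**
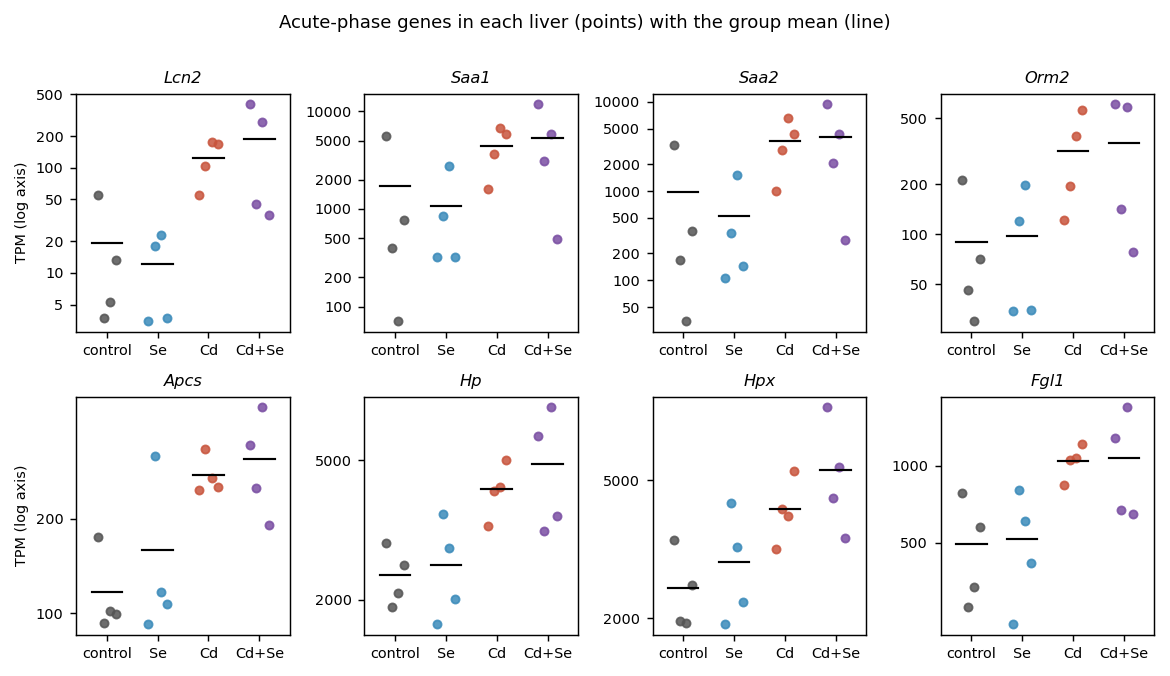
TPM (log axis) of 8 acute-phase genes in each liver of the 4 groups, with the arithmetic group mean as a line. Hp, Hpx and Apcs separate control from Cd+Se livers, while control mouse 27 (Saa1 at 5641 TPM) and Cd+Se mouse 16 (Saa1 at 494 TPM) cross in Saa1, Saa2, Lcn2, Orm2 and Fgl1. None of the 8 passed the test.

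Hmox1, which encodes heme oxygenase 1, the enzyme that opens the heme ring, stood at 10.2, 10.9, 8.08 and 10.2 TPM in control mice and at 54.0, 26.3, 59.7 and 29.9 TPM in Cd+Se mice. Its mean was 4.31 times that of controls (1.92 ± 0.25, adjusted p = 0.000921), and the call held in all 16 alternative settings. In the Cd mice it was at 15.9 to 19.6 TPM, lower than in any Cd+Se mouse. Cd+Se exceeded Cd by 1.11 ± 0.25 (adjusted p = 0.0122), and 15.9% of all genes tested differed between Cd+Se and Cd.

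Hmox1 was the single gene of the NRF2 list to pass. Of the 32 NRF2 targets tested 1 rose and none fell, with a median of 0.27, and 9 were higher and 1 lower at an unadjusted p under 0.05. Nqo1, a quinone reductase, stood at 2.46 to 3.51 TPM in control mice and 3.25 to 8.10 TPM in Cd+Se mice (0.73 ± 0.27, adjusted p = 0.31). Gclc and Gclm, the subunits of glutamate-cysteine ligase, differed by 0.62 ± 0.26 and 0.48 ± 0.19 (adjusted p = 0.40 and 0.35). Gsta1, a glutathione transferase, differed by 1.72 ± 0.55 (adjusted p = 0.23), with Cd+Se values from 3.14 to 35.9 TPM. Among ferroptosis genes Hmox1 was again the 1 of 25 to pass, with a median of 0.11. Under 1 TPM, Slc7a11, a cystine transporter subunit, stood at 0 to 0.07 TPM in control mice and 0.27 to 1.06 TPM in Cd+Se mice. Ptgs2 was listed at 0 in control mice and at 0.07 to 0.23 TPM in Cd+Se mice. Both had an exact permutation p of 0.0286 (adjusted p = 0.15). For Cbr3, Abcc4, Gpx2, Alox5, Alox12 and Alox15 the exact p was at least 0.057.

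No selenoprotein gene passed in either direction by limma. Of the 19 tested, 2 were higher and 1 lower at an unadjusted p under 0.05, and the median was 0.01. Selenow, a small redox protein, stood at 64.5 to 79.2 TPM in control mice and at 91.2 to 100.3 TPM in Cd+Se mice (0.36 ± 0.12, adjusted p = 0.23). Dio1, a deiodinase, stood at 44.2 to 62.0 TPM in control mice and at 29.95 to 39.2 TPM in Cd+Se mice (-0.66 ± 0.23, adjusted p = 0.28). Gpx1 differed by -0.14 ± 0.13 (adjusted p = 0.77), Gpx4 by 0.29 ± 0.16 (adjusted p = 0.55) and Selenop by -0.04 ± 0.13 (adjusted p = 0.94).

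Several other rises were larger in Cd+Se than in Cd past the threshold. Against control, Tlr2, Tnfaip3, Icam1, Clec4n, Plek, Cd93 and Ms4a6d rose by 1.21, 1.15, 0.89, 1.29, 0.96, 0.91 and 0.76 in Cd+Se. In the Cd mice the same 7 genes differed from control by 0.37, 0.40, 0.35, 0.33, 0.28, 0.24 and 0.15, without passing there, where 30.8% of all genes tested passed. The direct differences of Cd+Se from Cd were 0.84, 0.75, 0.54, 0.96, 0.68, 0.67 and 0.61, with adjusted p-values from 0.0136 to 0.0417. Serpina3f, a serine protease inhibitor, and Ms4a6c passed against both control and Cd, with 0.60 and 0.53 above Cd (adjusted p = 0.0198 and 0.0447). Since the genes were chosen for their difference in these same Cd+Se mice, these values describe them and are no independent test.

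Clec4n, the fungal lectin dectin-2 of myeloid cells, lost its call against control without any 1 of the 8 mice (adjusted p from 0.054 to 0.141). It stood at 2.09 to 3.03 TPM in control mice and at 10.8, 6.59, 6.87 and 5.65 TPM in Cd+Se mice. Plek, the pleckstrin of leukocytes and platelets, stood at 0.78 to 1.41 TPM in control mice and 1.98 to 4.63 TPM in Cd+Se mice, and Cd93, a receptor of endothelium and myeloid cells, at 0.50 to 0.77 TPM and 1.78 to 2.97 TPM. Slfn2, a regulator of immune cell quiescence, rose by 0.91 ± 0.17 (adjusted p = 0.0241). Plek and Slfn2 each lost the call without control mouse 27, 29 or 30 or Cd+Se mouse 13 (adjusted p of up to 0.079 and 0.095). Cd93 lost it without any 1 control mouse or Cd+Se mouse 13 (adjusted p of up to 0.070). Plek, Cd93, Serpina3f, Slfn2, Capg, Ms4a4c, Ms4a6d, Slc1a5, Nup43, Slc25a10 and F830016B08Rik fall outside the rule for named genes and were chosen after their values were seen, because they also passed.

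Genes of metabolism were among the rest of the rises. Lpl, which encodes lipoprotein lipase, an enzyme that adult hepatocytes barely express, stood at 4.24, 5.20, 3.95 and 4.79 TPM in control mice and at 11.5, 10.7, 10.4 and 11.8 TPM in Cd+Se mice. The 4 Cd+Se values lay close together (1.13 ± 0.18, adjusted p = 0.00742), and the call held in all 16 alternative settings. Enho, which encodes the peptide adropin, stood at 3.74 to 5.50 TPM in control mice and 10.1 to 16.1 TPM in Cd+Se mice (1.21 ± 0.24, adjusted p = 0.031). Slc1a5, a glutamine transporter, stood at 0.75 to 1.81 TPM and 3.5 to 6.09 TPM (1.25 ± 0.25, adjusted p = 0.034).

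Tspyl2, a nuclear protein of the nucleosome assembly family, stood at 3.24 to 7.47 TPM in control mice and 10.4 to 17.5 TPM in Cd+Se mice (1.31 ± 0.26, adjusted p = 0.0311). F830016B08Rik, an interferon-inducible GTPase gene, rose by 0.78 ± 0.16 (adjusted p = 0.0352). In Enho, Slc1a5, Tspyl2 and F830016B08Rik the call was lost on leaving out at least 5 of the 8 mice in turn, with adjusted p-values of up to 0.12.

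Gm56451, a gene on chromosome 2 whose role is not known from the table, was listed at 0 in all 4 control mice. It stood at 38.8, 23.3, 85.4 and 56.9 TPM in Cd+Se mice, at 10.3, 0, 0 and 14.1 TPM in Cd mice and at 37.7, 60.1, 0 and 35.6 TPM in Se mice. No fold change is given (adjusted p = 0.0311, lost in 8 of 16 alternative settings).

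The remaining 13 genes that fell were on neither the Kupffer nor the chemokine list. G0s2, which encodes an inhibitor of adipose triglyceride lipase, stood at 95.1, 166, 128 and 134 TPM in control mice and at 51.3, 33.3, 19.4 and 36.8 TPM in Cd+Se mice. The groups did not overlap (-1.92 ± 0.39, adjusted p = 0.0368), but the call was lost on leaving out any 1 mouse other than Cd+Se mouse 13 (adjusted p of up to 0.12). Plin2, the coat protein of lipid droplets, stood at 148, 119, 164 and 114 TPM in control mice and at 79.8, 83.7, 79.6 and 80.3 TPM in Cd+Se mice (-0.73 ± 0.15, adjusted p = 0.0445). Its call was lost without any 1 of the 8 mice, with an adjusted p of up to 0.198.

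Miga2, a protein of mitochondrial fusion that also links mitochondria to lipid droplets, stood at 20.2, 18.1, 21.4 and 16.1 TPM in control mice and at 7.95, 9.62, 8.48 and 10.3 TPM in Cd+Se mice. Every Cd+Se liver lay under every control liver (-0.98 ± 0.15, adjusted p = 0.00709), and the call held in all 16 alternative settings. Paqr7, a membrane progestin receptor, stood at 15.3 to 20.04 TPM and 5.21 to 10.9 TPM (-1.02 ± 0.20, adjusted p = 0.0282). Gstt3, a glutathione transferase of the theta class, stood at 24.1, 17.9, 23.9 and 20.6 TPM in control mice and at 8.97, 10.04, 8.71 and 13.4 TPM in Cd+Se mice (-1.01 ± 0.17, adjusted p = 0.0105).

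Enzymes and carriers of mitochondria and peroxisomes fell by less. Pecr, a peroxisomal enoyl-CoA reductase, stood at 162 to 187 TPM in control mice and at 109 to 137 TPM in Cd+Se mice (-0.59 ± 0.10, adjusted p = 0.0139). Slc25a10, the dicarboxylate carrier of the inner mitochondrial membrane, stood at 64.9 to 77.8 TPM and 44.3 to 56.5 TPM (-0.49 ± 0.10, adjusted p = 0.0368). Mipep, a peptidase of the mitochondrial matrix, fell by 0.57 on the log2 scale (adjusted p = 0.0416). The list of nuclear genes of oxidative phosphorylation had none of 81 passing by limma (none higher and 15 lower at an unadjusted p under 0.05) and a median of -0.11.

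Tbc1d7, a subunit of the TSC complex that restrains mTORC1, stood at 5.62 to 6.26 TPM in control mice and at 3.06 to 3.58 TPM in Cd+Se mice (-0.66 ± 0.11, adjusted p = 0.0105). Apol7a, of the apolipoprotein L family, fell by 0.65 on the log2 scale (adjusted p = 0.038) and Nup43, a nucleoporin, by 0.69 (adjusted p = 0.0414). Def8 and Tmem18 fell by 0.61 and 0.59 (adjusted p = 0.0222 and 0.038). In these last 2 the Cd mice lay further from control, at -0.97 and -1.14, and Cd+Se exceeded Cd by 0.36 and 0.55 (adjusted p = 0.0426 and 0.0117). Most of these smaller falls lost the call on several omissions of 1 mouse, and none changed sign. Apol7a, Nup43, Mipep and Tmem18 each lost the call in 7 of the 8 omissions of 1 mouse, Paqr7, Def8 and Slc25a10 in 5, Pecr in 4, and Gstt3 and Tbc1d7 in 1, with adjusted p-values of up to 0.156. The differences themselves moved little. The omission that moved each one furthest shifted its fold change by 1.02 times (Tbc1d7) to 1.13 times (Paqr7).

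None of the 53 genes passed the test between Se and control, where limma passed 0 of the 11766 genes, or 0%. At an unadjusted p under 0.05, Gm56451 (listed at 0 in control mice), Tspyl2, Slc1a5, Enho and Mt1 were higher in Se mice. At that level S100a8 and Pecr were lower. The share of all genes tested at that level is not given here. The 53 genes were chosen for differing from these same control mice, so these values describe them and are no independent test. The differences of Se from control were 0.95 for Tspyl2, 0.77 for Slc1a5, 0.71 for Enho and -0.64 for S100a8, with adjusted p-values of at least 0.83. Elsewhere the differences were -0.15 for Cd163, -0.16 for Timd4, -0.19 for Vsig4, 0.55 for Saa3, 0.01 for Hmox1 and 1.06 for Mt1. The Se mice were themselves variable, with Saa3 at 9.25, 42.3, 39.3 and 9.50 TPM.

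Among the metabolic lists below, Plin2 gave the single call. No gene passed by limma among cytochrome P450 genes of families 1 to 3 (31 tested, none higher and 4 lower at an unadjusted p under 0.05, median -0.07). The same held for bile acid genes (27, 2 and 5, median -0.15), cholesterol synthesis and LDL uptake (27, 1 and none, median 0.08), lipogenesis (22, none and 3, median -0.29) and heat shock genes (22, none and none, median -0.03). Targets of PPARα, the regulator of fatty acid oxidation, had 30 tested, of which 28 lay below 0, with a median of -0.33. At an unadjusted p under 0.05, 10 of them were lower and none was higher. Plin2 was the 1 gene that fell past the threshold. Without Cd+Se mouse 15 the list had 9 genes that fell and a median of -0.55, and without any other mouse it had none. Cpt2, the inner carnitine palmitoyltransferase, differed by -0.69 ± 0.18 (adjusted p = 0.12) and Fabp1, the liver fatty acid-binding protein, by -0.55 ± 0.19 (adjusted p = 0.29).

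Markers of other cells the tissue could hold were few. Of the lists for lymphocytes, cholangiocytes, red cells, pancreas, and adipocytes and mesothelium, 1, 4, 5, 1 and 1 genes were tested, and none passed by limma or reached an unadjusted p under 0.05. Their summed levels overlapped between the groups, for example 13.03 to 18.7 TPM in control mice and 8.65 to 28.2 TPM in Cd+Se mice for lymphocyte genes.

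Stress and immune lists without a call included ATF4 and ER stress (35 tested, 4 higher and none lower at an unadjusted p under 0.05, median 0.22), interferon response (34, 6 and 2, median 0.15, with 2 passing without Cd+Se mouse 15) and antigen presentation (20, 3 and none, median 0.09). The phagocyte lysosome list had 30 tested, 3 higher and none lower at that level, and a median of 0.14. No gene passed by limma among p53 targets (15 tested, 3 higher and none lower at that level, median 0.23), immediate early genes (20, 6 and 1, median 0.27), proliferation (18, none and 1, median 0.01), cell death (18, 3 and 2, median 0.19), the circadian clock (17, 1 and 2, median -0.08) and mitochondrially encoded genes (13, none and none, median -0.09). Cytosolic ribosomal protein genes had none of 81 passing by limma, but 19 were higher and none lower at an unadjusted p under 0.05, with a median of 0.28.

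Genes of stellate cells and matrix lay higher without passing. Of the 19 tested, none passed by limma, 8 were higher and none lower at an unadjusted p under 0.05, and the median was 0.47. Without Cd+Se mouse 15 there were 3 that passed, all higher, and 2 passed when protein-coding genes alone were tested. Col3a1, a fibrillar collagen, stood at 2.72, 2.72, 2.03 and 2.37 TPM in control mice and at 19.1, 6.95, 3.80 and 10.6 TPM in Cd+Se mice. The groups did not overlap, mouse 13 was the highest and mouse 15 the lowest Cd+Se mouse, and the difference was 1.49 ± 0.32 (adjusted p = 0.057). Col1a2 followed with 0.97 ± 0.23 (adjusted p = 0.082), while Lrat and Reln, genes of the quiescent stellate cell, differed by 0.21 and -0.28 (adjusted p of at least 0.73).

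**Figure D5:**
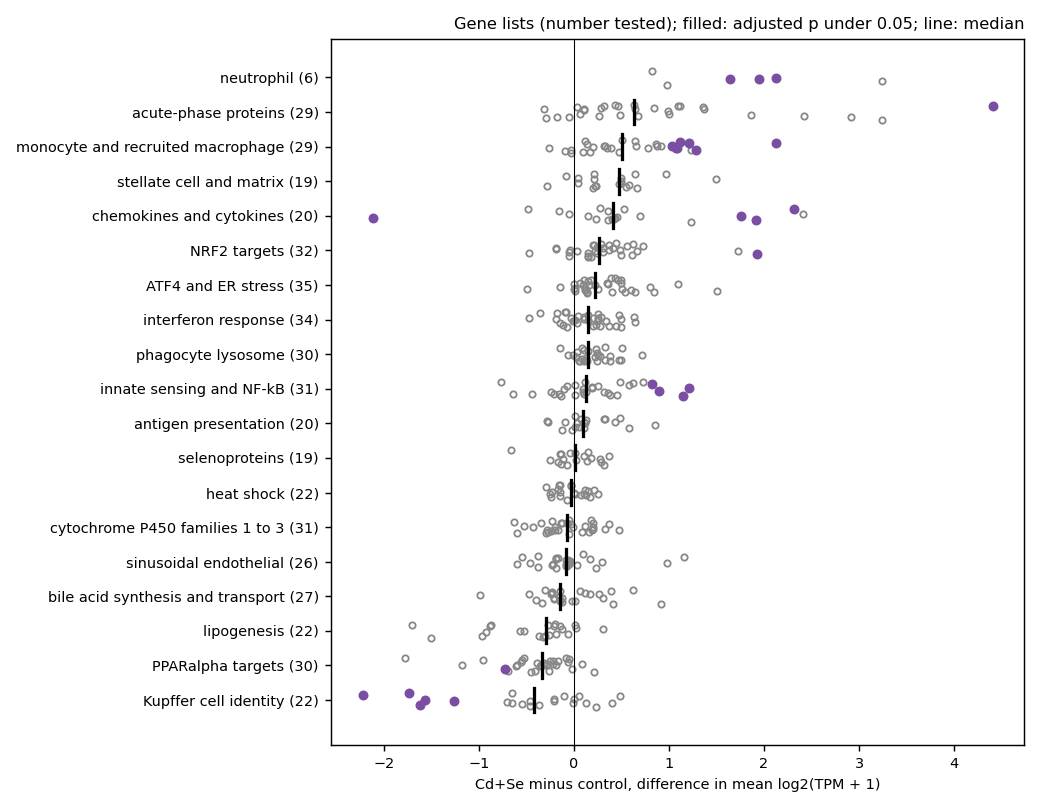
Difference in mean log2(TPM + 1) between Cd+Se and control for each tested member of 19 gene lists (circles, filled where the adjusted p is under 0.05), with the median of the tested members as a line. No median is drawn for the neutrophil list, of which 6 of 16 genes were tested. The Kupffer list lies at -0.42, the selenoprotein list at 0.01 and the monocyte list at 0.50. Lists can hold genes that reached the limit of 1 TPM only through groups in which they were high, which can shift these medians.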

How the data were processed

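Poly(A) RNA of 16 mouse livers (4 mice a group) was sequenced on an Illumina NovaSeq. TPM values are as the authors deposited them, in a single table holding 1 column per mouse and no fold changes. The submitters' processing notes name fastp, HISAT2 and StringTie without versions and give the build as GRCh38, although the gene identifiers are mouse Ensembl ones, so no coordinate was taken from the table. Gene positions are from GENCODE M21 and promoters from RefSeq (both GRCm38). Reads shared by near-identical genes (Mt1 and Mt2, the Saa, S100a, Serpina3 and Ms4a families) could have been split between them, and how is not given in the sources used here.

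Genes averaging 1 TPM or more across the libraries (11766) entered limma (version 3.58.1, R version 4.3.3) as log2(TPM + 1), in a model of 4 group means with an intensity trend. Benjamini-Hochberg adjustment covered all of them (threshold 0.05). Genes under this limit were compared by an exact permutation test (scipy 1.17.1). TPM keep no depth, so count tests were not used. In simulated data for the Cd+Se comparison with 200 of 11766 genes changed, 89 of 100 genes with a log2 change of 1 and 99 of 100 with a change of 2 were recovered, and 14 unchanged genes were called. The simulation gave all groups the same spread, whereas the real Cd+Se livers were less alike than the control livers. The recovered shares therefore do not measure how many real changes were found.

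The genes and the 36 lists were chosen with earlier results of these data known. Named by rule were Mt1 and Mt2, the 15 largest rises and 15 largest falls past the threshold with groups apart and a mean of at least 5 TPM in the higher group, up to 6 passing members of each list, and further members of the macrophage, neutrophil, chemokine, acute-phase, innate, lysosome, selenoprotein and NRF2 lists needed to say what did not pass. Genes of other lists named without a call (Slc30a1, Hamp, Slc40a1, Cpt2, Fabp1, Col3a1, Col1a2, Lrat and Reln) and those under 1 TPM were chosen after their values were seen, as was the κB motif. All motifs were searched on both strands. Alternatives tried were another pseudocount, other filters, quantile normalization, median centring, a fit of 2 groups, no trend and the omission of each mouse. Of the 53 genes past the threshold, 1 is counted but not reported here.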

Additional observations from a re-analysis of the deposited data

Results flagged for a closer look

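In 7 of the 104 groups of 4 mice looked at (control and Cd+Se, for the 53 genes), 1 mouse stood apart from the other 3 by Dixon's ratio (how far it lay from its neighbour, as a share of the group's whole spread). Chance gives about 1 in 20, or 5.2 groups. Cd+Se mouse 13 was the high one in 4 of them. They were Ms4a6d (4.28 TPM against 2.61 to 2.74 TPM, ratio 0.922), Ccl2 (15.5 against 3.84 to 4.85 TPM, ratio 0.913), Cd93 (2.97 against 1.78 to 1.92 TPM, ratio 0.882) and S100a9 (47.5 against 27.6 to 30.1 TPM, ratio 0.872). Without mouse 13 the log2 difference from control was 0.63 for Ms4a6d, 1.91 for Ccl2 and 0.79 for Cd93, and Cd93 lost its call.

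In the other 3 groups, 1 mouse was low. Control mouse 30 had F830016B08Rik at 4.37 TPM against 6.90 to 7.06 TPM (ratio 0.941), and without it the difference was 0.64 in place of 0.78 and the call was lost. Cd+Se mouse 15 had Apol7a at 27.98 TPM against 38.3 to 40.01 TPM (ratio 0.856), and without it the difference was -0.54 in place of -0.65 and the call was lost. Control mouse 27 had Cxcl13 at 2.22 TPM against 3.64 to 3.90 TPM (ratio 0.845).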

How the results depend on the processing

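Of the 53 genes, 11 passed in every setting in which they were tested (Cd163, Cxcl13, Hmox1, Lpl, Miga2, Mt1, Mt2, S100a8, Saa3, Timd4 and Vsig4), 42 lost the call in at least 1, and none changed sign. The number of protein-coding genes past the threshold was 99 under quantile normalization and 96 under median centring, each with 50 of the 53 among them. It was 25 with a mean of at least 5 TPM, where fewer genes were tested, and 16 with the other groups left out of the fit. That fit estimates the spread from fewer samples and from the 2 compared groups alone, and 38 of the 53 genes lost the call. The main fit pools the spread of each gene over all 4 groups. Libraries of Cd mice were more alike (mean correlation of 0.976 to 0.978) than those of Cd+Se mice (0.956 to 0.968). What part the sample number and the pooling had in the lower count was not tested. Leaving out 1 mouse gave 23 (without control mouse 29) to 95 (without Cd+Se mouse 15). It was 31, 32 and 30 without control mice 27, 28 and 30, and 32, 56 and 46 without Cd+Se mice 13, 14 and 16. With a pseudocount of 0.1, no filter, no trend, protein-coding genes only, or a log2 fold change of at least 1, it was 53, 39, 51, 72 and 36. Without the other groups no monocyte gene, no gene of the NF-κB list and no rise among chemokines passed, while 3 Kupffer genes and 1 neutrophil gene did. The causes were not tested beyond these fits. No paired analysis was possible because the mouse numbers do not repeat between groups. Depth is unknown in TPM, which limits what can be said of genes under 1 TPM.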
